A study of Mus musculus with 6 samples.

Results

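The genes described here are 9 TALE homeobox genes, Meis1, Meis2, Meis3, Pbx2, Pbx3, Pknox1, Pknox2, Tgif1 and Tgif2, out of 22933 genes measured in mouse embryonic stem cells. They were chosen by gene family, with earlier results of the same comparison known, so their differences between the groups are given as a description. Calls from the fit over all genes are given for them, but are not read as a test. The tamoxifen group (3 libraries) holds Ezh2 fl/fl cells after 96 hours in 800 nM 4-hydroxytamoxifen, labelled Ezh2 KO, with RNA taken at day 4. The untreated group (3 libraries) holds the same floxed cells before the drug, which the labels call wild type at Ezh2. Both groups come from Ezh2 fl/fl cells, and the labels give Ezh2 as deleted after tamoxifen in the tamoxifen group. Both grew on gelatin in serum medium with 1000 U/ml of leukaemia inhibitory factor. The labels give neither the Cre driver nor the number of clones, and drug-treated cells without the floxed alleles were not analysed here. It is not stated whether replicates were separate cultures, so their spread could be technical only.

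TALE proteins are homeodomain transcription factors whose homeodomain has a loop longer by 3 amino acids than the usual form. Meis and Pknox proteins pair with Pbx proteins, which keeps the pair in the nucleus, and these pairs bind DNA together with Hox proteins. Tgif proteins recognise similar DNA but act mainly as repressors that bind Smad proteins of the TGF-beta pathway. Ezh2 is the catalytic subunit of Polycomb repressive complex 2, which silences many developmental regulators in embryonic stem cells by a methyl mark on histone H3.

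Polycomb complexes are known to bind at promoters rich in CpG dinucleotides, so the stretch before the start site is shown for the 3 genes whose RefSeq window lies in front of the annotated gene, apart from at most 16 bases. These are Meis1, the gene with the highest log2 difference between the groups on deposited values, and Tgif1 and Tgif2, where the differences were slightly below 0. Each line holds the 250 bases before the RefSeq start on the gene's strand, 5′ to 3′, with CpG in capitals.
Meis1: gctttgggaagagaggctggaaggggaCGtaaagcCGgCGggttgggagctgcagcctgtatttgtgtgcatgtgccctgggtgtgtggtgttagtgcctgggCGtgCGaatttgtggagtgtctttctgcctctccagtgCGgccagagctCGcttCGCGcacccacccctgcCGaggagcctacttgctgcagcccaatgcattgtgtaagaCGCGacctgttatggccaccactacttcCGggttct
Tgif1: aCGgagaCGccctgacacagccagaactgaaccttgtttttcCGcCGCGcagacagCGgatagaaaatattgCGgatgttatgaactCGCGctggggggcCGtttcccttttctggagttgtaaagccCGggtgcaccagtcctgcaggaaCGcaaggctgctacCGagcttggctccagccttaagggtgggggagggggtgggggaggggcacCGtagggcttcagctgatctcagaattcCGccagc
Tgif2: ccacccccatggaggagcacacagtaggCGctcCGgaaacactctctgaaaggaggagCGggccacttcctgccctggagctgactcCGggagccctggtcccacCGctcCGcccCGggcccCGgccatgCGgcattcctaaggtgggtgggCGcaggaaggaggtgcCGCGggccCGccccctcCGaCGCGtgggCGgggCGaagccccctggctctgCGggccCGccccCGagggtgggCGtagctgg

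The Meis1 stretch (GRCm38.p6, chr11:19018970-19019219, minus strand) holds 13 CpG, that of Tgif1 (chr17:70853533-70853782, minus strand) holds 15 and that of Tgif2 (chr2:156839757-156840006, plus strand) holds 22. The median over 32851 such windows was 6, and the upper quartile was 16. RefSeq windows were matched for 6 of the 9 genes, 10 windows in all. The windows of Meis2 (7 CpG), Meis3 (12) and Pbx2 (27) and the other 4 of Tgif1 (2 to 18) lie inside the annotated gene, behind another start. The motif TGACAG, the core that Meis and Pknox proteins recognise, was found on neither strand of any of the 10 windows, against 15.9% of all windows with at least 1 match. The motif TGATNNAT, a joint Pbx and Hox form, was in 1 of the 10, a Tgif1 window, and in 7.68% of all windows. These counts describe letters only, and binding was not measured here.

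The libraries held 2334558 to 5110226 recovered reads in the tamoxifen group and 2678342 to 5689666 in the untreated group. Recovered reads are whole read counts solved from the deposited values, and a deposited value is a normalized signal with no length correction. RPM below are recovered reads scaled to 1000000 per library. The 10 most abundant genes took 20.2% to 32.3% of reads in tamoxifen libraries and 22% to 36.7% in untreated libraries. Ezh2 had values of 2258, 2559 and 2609 in tamoxifen libraries and 4165, 3620 and 3483 in untreated libraries. These values are for the whole gene, reads per exon are not given, and the extent of deletion was not tested. In RPM Ezh2 stood at 72, 123 and 102 in tamoxifen libraries and 180, 97.9 and 67.6 in untreated libraries, which overlap. The log2 difference of Ezh2 was -0.60 on deposited values and -0.13 in RPM, or -0.39 against the median of all genes in RPM. All 10 embryonic stem cell markers were detected, Pou5f1 and Sox2 among them, with a summed level of 1372 to 1877 RPM in tamoxifen and 1176 to 1930 in untreated libraries.

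Meis1 had the highest log2 difference of the 9 genes on deposited values. It encodes a Hox cofactor needed for blood stem cells and known as an oncogene in leukaemia. Its deposited values were 283, 312 and 302 in tamoxifen libraries and 79, 40 and 39 in untreated libraries. The groups did not overlap, the tamoxifen values lay close together, and untreated replicate 1 was the high one of its group. The mean was 299 ± 14.9 in tamoxifen and 52.5 ± 22.5 in untreated libraries (SD, n = 3 each), a ratio of 5.7. On the log2(value + 1) scale the difference, tamoxifen minus untreated, was 2.56 ± 0.35 (limma SE). The gene (ENSMUSG00000020160) occupies positions 18879817 to 19018985 of chromosome 11 (GRCm38, minus strand).

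Meis1 rested on 47, 53 and 97 recovered reads in the tamoxifen libraries and 25, 17 and 6 in the untreated libraries. In RPM these are 12.2, 22.7 and 19.0 in tamoxifen and 6.48, 2.99 and 2.24 in untreated libraries, again without overlap. The pooled ratio of RPM was 4.44, with an exact 95% interval from 3.23 to 6.22 that covers counting error only. The log2 difference in RPM was 2.26, or 2.00 against the median of all genes in RPM. With 1 library left out at a time the log2 difference on deposited values ranged from 2.40 to 2.89. An antisense gene, Gm16140, shares 896 exon bases with Meis1 and had 1 read over all 6 libraries, and Gm37818 on the same strand shares 1029 exon bases and was not used here.

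Meis2, a paralogue known for roles in neural crest, heart and limb development, stood at 59, 166 and 137 in tamoxifen libraries and 20, 30 and 59 in untreated libraries. The lowest tamoxifen and the highest untreated value both round to 59, so the groups only just failed to overlap. The means were 121 ± 55.3 in tamoxifen and 36.2 ± 20 in untreated libraries (SD, n = 3 each), and the log2 difference was 1.72 ± 0.57 (SE). The recovered reads were 16, 34 and 51 in tamoxifen and 6, 11 and 7 in untreated libraries. The pooled ratio of RPM was 4.55, with an exact 95% counting interval from 2.9 to 7.44 that overlaps the one of Meis1. In RPM the log2 difference was 2.02, or 1.77 against the median of all genes. Tamoxifen replicate 1 was the low one of its group. Leaving out 1 library gave log2 differences from 1.38 to 2.16 on deposited values. The gene (ENSMUSG00000027210) occupies positions 115863064 to 116065839 of chromosome 2 (minus strand).

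Meis3, known from hindbrain patterning in frog and fish embryos, was too shallow to compare. It had 2, 6 and 18 reads in tamoxifen libraries and 4, 3 and 1 in untreated libraries. Its deposited values of 38, 183 and 214 in tamoxifen overlapped the 96, 48 and 54 of untreated libraries. At 5.67 reads on average it was the only member under the minimum of 10 set for the fit over all genes.

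**Figure D1:**
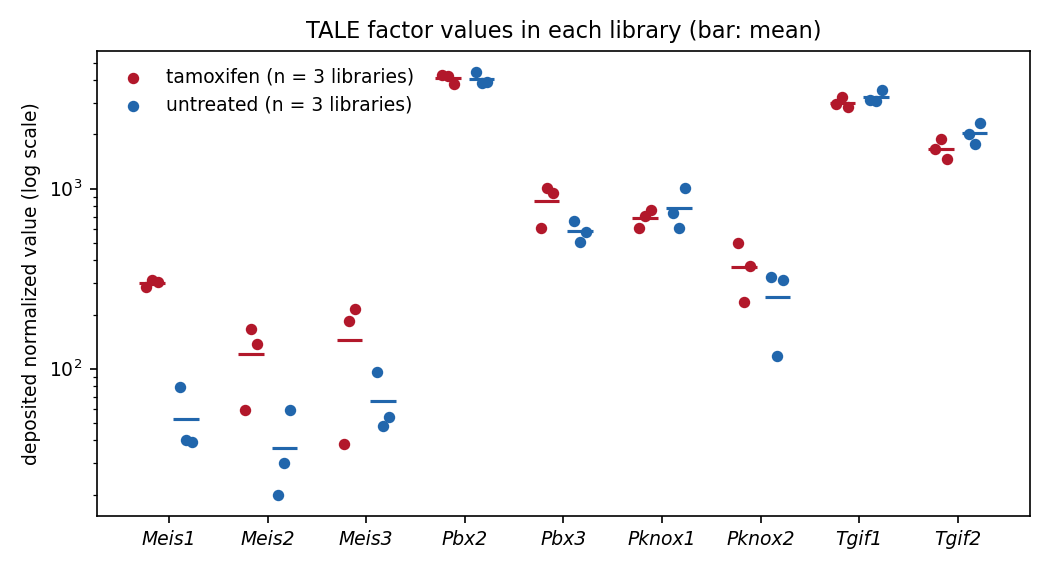
Deposited normalized value (log axis) of the 9 TALE genes in each library, tamoxifen (red, left) and untreated (blue, right), n = 3 libraries each, with bars at the means. Meis1 lies at 283 to 312 in tamoxifen and 39 to 79 in untreated libraries, while Pbx2, Tgif1 and Tgif2 overlap between the groups.

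Both Pbx genes among the 9 encode the partners of Meis and Pknox proteins. Pbx2, a broadly expressed member, had 4270, 4220 and 3833 in tamoxifen libraries and 4455, 3853 and 3927 in untreated libraries. The ranges overlapped almost fully, with means of 4108 ± 239 in tamoxifen and 4079 ± 328 in untreated libraries (SD, n = 3 each) and a log2 difference of 0.01 ± 0.12 (SE). Gpsm3, on the same strand, shares 227 exon bases with Pbx2 and had 92 reads over the 6 libraries, and how shared bases were counted is not stated. Pbx2 (ENSMUSG00000034673) lies on chromosome 17 from 34591266 to 34597400.

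Pbx3, which mice need for the central control of breathing, had 603, 1012 and 944 in tamoxifen libraries and 662, 506 and 573 in untreated libraries. Tamoxifen replicate 1 lay within the untreated range, and the other two tamoxifen libraries were above it. The log2 difference was 0.53 ± 0.23 (SE) on deposited values and 1.25 on RPM of recovered reads. On that second scale the median of all genes stood at 0.25, so Pbx3 lay 1.0 above it. Its reads were 65, 138 and 218 in tamoxifen and 123, 55 and 27 in untreated libraries, and 1 read was worth 4.33 to 21.2 units of deposited value depending on the library. The size of the Pbx3 difference thus differed between deposited values and RPM, and the reason was not tested. Pbx3 (ENSMUSG00000038718) lies on chromosome 2 from 34171457 to 34373142.

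The Pknox genes, also called Prep genes, encode relatives of Meis that pair with Pbx. Pknox1, without which mouse embryos do not develop normally, had 603, 701 and 760 in tamoxifen libraries and 730, 604 and 1011 in untreated libraries. The groups overlapped, with a log2 difference of -0.16 ± 0.22 (SE). On RPM of recovered reads the Pknox1 difference was 0.15, or -0.11 against the median of all genes. Pknox2 had 497, 234 and 370 in tamoxifen and 322, 117 and 311 in untreated libraries, which also overlapped. Its log2 difference was 0.62 ± 0.45 (SE), with values from 0.15 (without untreated replicate 2) to 0.91 when 1 library was left out. In RPM Pknox2 stood at 18.4, 16.3 and 21.9 in tamoxifen and 16.1, 6.33 and 9.71 in untreated libraries, where the groups did not overlap by a narrow margin. On that scale the Pknox2 log2 difference was 0.90, or 0.65 against the median of all genes.

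The Tgif genes encode corepressors of Smad proteins, and loss of TGIF1 is a known cause of holoprosencephaly in humans. Tgif1 had 2957, 3230 and 2842 in tamoxifen libraries and 3114, 3075 and 3521 in untreated libraries. Tgif2 had 1653, 1886 and 1460 in tamoxifen libraries and 2014, 1771 and 2324 in untreated libraries. Both overlapped between the groups, with log2 differences of -0.10 ± 0.12 for Tgif1 and -0.29 ± 0.16 for Tgif2 (SE). The Tgif2 difference stayed between -0.38 and -0.19 with 1 library left out. The transcript 5430405H02Rik, on the opposite strand, shares 2171 exon bases with Tgif2 and had 55 reads over the 6 libraries. Without a stated strand setting, reads of this pair cannot be told apart.

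**Figure D2:**
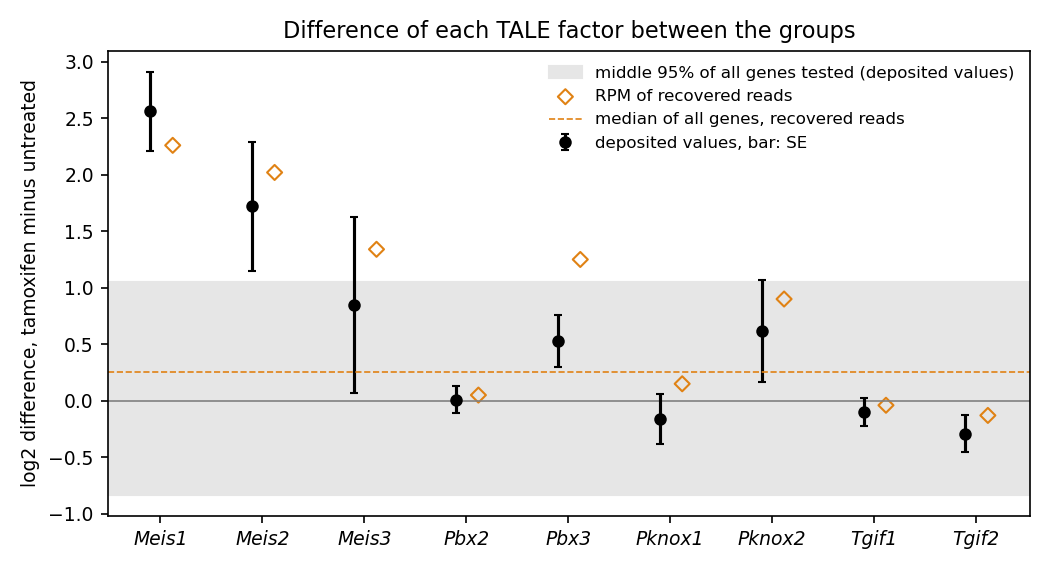
Log2 difference, tamoxifen minus untreated, of each gene on log2(value + 1) of deposited values (black, bars are SE, n = 3 libraries each) and on RPM of recovered reads (open diamonds), with the middle 95% of all tested genes shaded (-0.83 to 1.05, deposited values only) and the median of all genes on recovered reads dashed (0.25). On deposited values Meis1 and Meis2 lie above the shaded band, which does not apply to the diamonds, and the Meis3 point comes from the fit with no filter on low values.

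Of the 8 members in the fit over all genes, 0 were called at a limma adjusted p under 0.05 (Benjamini-Hochberg), where 0.127% of all 11847 genes were called, 0.110% higher and 0.0169% lower. At an unadjusted p under 0.05 there were 1415 genes in all. Meis1 and Meis2 were the 2 members with all 3 tamoxifen values above all 3 untreated values, which held for 9.49% of all genes tested. No member had all 3 below, which held for 8.89%. Since the members were chosen with this contrast known, nothing is read from these counts. The median log2 difference was 0.27 over the 8 tested members and -0.01 over all genes tested.

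The Meis genes together made up more of the family's reads in the tamoxifen libraries. Meis1, Meis2 and Meis3 summed to 65, 93 and 166 reads in tamoxifen and 35, 31 and 14 in untreated libraries. As a share of the reads of all 9 genes this was 9.94%, 13.8% and 12.8% in tamoxifen and 4.2%, 2.92% and 3.5% in untreated libraries. The exact (Clopper-Pearson) 95% interval of the lowest tamoxifen share ran from 7.75% to 12.5%, and that of the highest untreated share from 2.94% to 5.79%, for counting error only. This share compares genes within a library, so a factor applied to a whole library cancels out. In RPM the Meis sum averaged 29.7 ± 11.7 in tamoxifen and 6.58 ± 2.16 in untreated libraries (SD, n = 3 each).

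The makeup within the Meis genes varied between libraries of a group. Meis1 held 72.3%, 57% and 58.4% of the Meis reads in tamoxifen libraries and 71.4%, 54.8% and 42.9% in untreated libraries. The untreated values rest on 14 to 35 Meis reads each, and the exact 95% interval in untreated replicate 3 ran from 17.7% to 71.1%. The shares of the groups overlapped, and their difference was not tested. The Tgif sum averaged 82.7 ± 17.9 RPM in tamoxifen and 86.4 ± 13.7 in untreated libraries, and the Pbx sum 79.8 ± 26.6 in tamoxifen and 56.7 ± 18.3 in untreated libraries. The Pknox sum was 45.6 ± 8.11 in tamoxifen and 34.5 ± 8.2 in untreated libraries (SD, n = 3 for each sum).

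**Figure D3:**
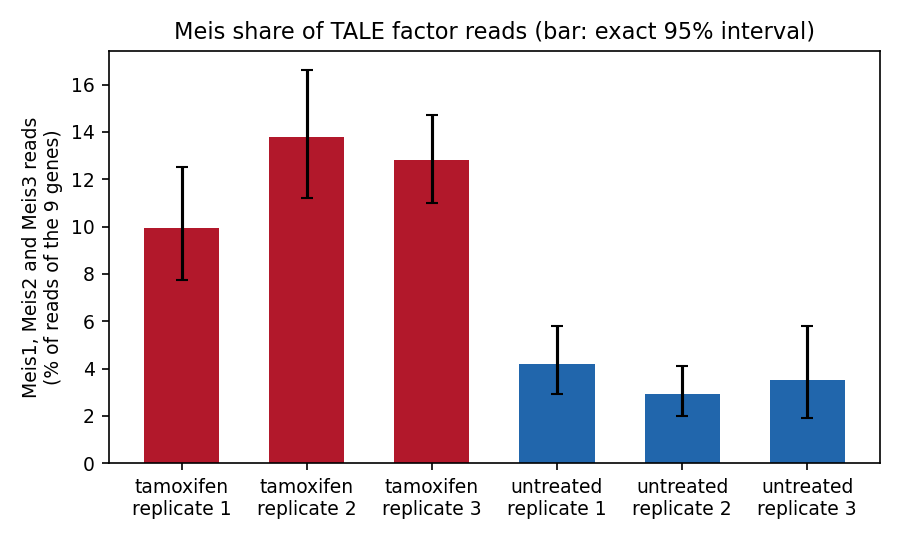
Share of the recovered reads of the 9 genes that belong to Meis1, Meis2 and Meis3 (percent, axis from 0) in each tamoxifen (red) and untreated (blue) library, with exact 95% binomial intervals. The tamoxifen libraries stand at 9.94% to 13.8% and the untreated libraries at 2.92% to 4.2%.

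Levels were compared between genes as RPM per kilobase of all annotated exons. In tamoxifen libraries Pbx2 (11.1 ± 1.46), Tgif1 (9.59 ± 2.23), Tgif2 (7.49 ± 1.4) and Pbx3 (6.47 ± 3.48) came first. Pknox1 (3.86 ± 0.984), Pknox2 (1.83 ± 0.275), Meis1 (1.71 ± 0.505), Meis2 (0.794 ± 0.433) and Meis3 (0.695 ± 0.484) followed (SD, n = 3). Neighbours in this order overlapped in range except Pknox1 and Pknox2. In untreated libraries the order was Pbx2 (10.9 ± 2.59), Tgif1 (9.82 ± 1.89), Tgif2 (8.13 ± 0.797), Pknox1 (3.43 ± 0.475) and Pbx3 (2.82 ± 2.08). Pknox2 (1.04 ± 0.479), Meis1 (0.371 ± 0.215), Meis3 (0.204 ± 0.11) and Meis2 (0.169 ± 0.0445) stood below them (SD, n = 3). There the ranges were apart between Tgif2 and Pknox1 and between Pbx3 and Pknox2. Per exon length, Meis1 and Pknox2 overlapped in range in tamoxifen libraries, and Meis1 lay under Pbx2 and both Tgif genes.

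The labels do not say whether introns were counted, and the choice of length changes this order. Per kilobase of the longest transcript Tgif1 came first in both groups, at 17.2 ± 3.99 in tamoxifen and 17.6 ± 3.39 in untreated libraries (SD, n = 3). On that length Meis1 stood at 2.38 ± 0.704 in tamoxifen libraries, below Pknox2 at 5.2 ± 0.783 and without overlap, and at 0.517 ± 0.3 in untreated libraries, below Pknox2 at 2.95 ± 1.36. Per kilobase of the whole gene span, a choice made after seeing the data, Meis1 stood at 0.129 ± 0.0382 in tamoxifen, above Pknox2 at 0.0736 ± 0.0111, and at 0.0281 ± 0.0163 in untreated libraries, below Pknox2 at 0.0417 ± 0.0193. The mean levels of the 3 Meis genes lay under those of Pbx2, Tgif1, Tgif2 and Pknox1 with all 3 lengths and in both groups.

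**Figure D4:**
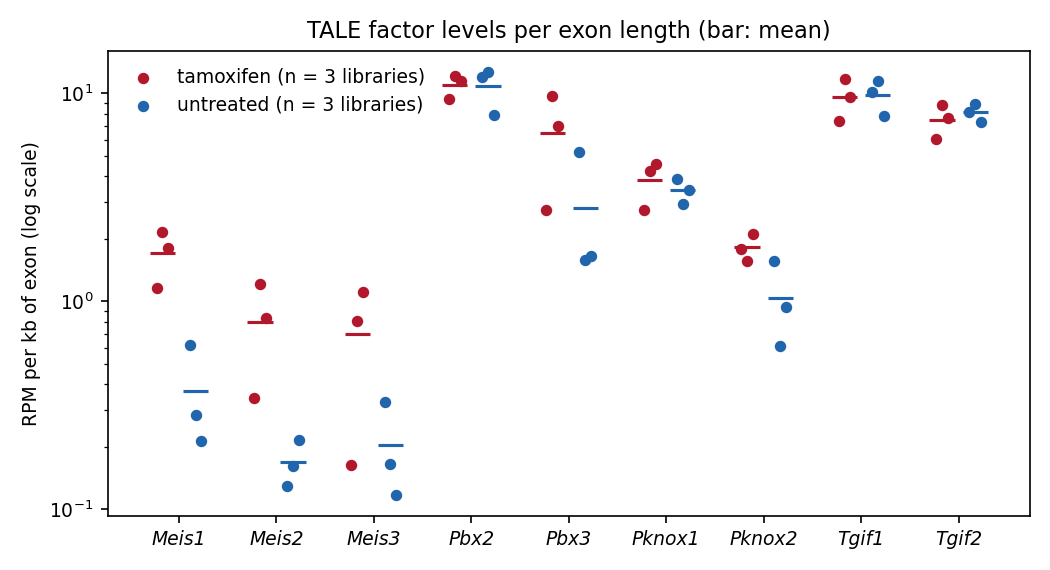
RPM per kilobase of exon (log axis) of the 9 genes in each library, tamoxifen (red, left) and untreated (blue, right), with bars at the means, n = 3 libraries each. Pbx2 and the Tgif genes stand at 6.03 or more in every library, and Meis1 at 1.16 to 2.16 in tamoxifen and 0.213 to 0.616 in untreated libraries.

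Further TALE genes were mostly too shallow. Of 8 (Pbx4, the 6 Irx genes and Mkx), 1, Pbx4, reached 10 reads on average. Of these genes 0 were called higher or lower, against 0.127% of all genes tested. With a share this low, 0 called in a short list does not show that its genes were unchanged. Pbx4 had 156, 175 and 185 in tamoxifen libraries and 137, 78 and 58 in untreated libraries (log2 difference 1.0 ± 0.37, limma adjusted p 0.347). These deposited values did not overlap, and 9.49% of all genes tested likewise had all tamoxifen values above. The Pbx4 reads were 21, 20 and 47 in tamoxifen and 22, 16 and 4 in untreated libraries. In RPM the groups overlapped, at 5.46, 8.57 and 9.2 in tamoxifen and 5.71, 2.81 and 1.49 in untreated libraries. Irx3, a TALE patterning gene, had 3, 3 and 5 reads in tamoxifen and 0, 0 and 1 in untreated libraries, and was chosen after its values were seen.

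Of the 39 Hox genes, the DNA-binding partners of Pbx and Meis, 38 were in the table and 3 reached 10 reads on average. Of these 3, 0 were called, against 0.127% of all genes tested. Hoxa3 stood at a log2 difference of 1.29 ± 0.44 (limma adjusted p 0.317), Hoxb9 at 0.12 ± 0.30 (0.902) and Hoxb8 at -0.07 ± 0.41 (0.962). Hoxa3, a regulator of hindbrain and pharyngeal development, had 214, 136 and 370 in tamoxifen libraries and 68, 78 and 136 in untreated libraries. The lowest tamoxifen and the highest untreated value of Hoxa3 both round to 136. Of the 35 Hox genes under 10 reads on average, 5 had no read in any library.

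Of 14 Smad and Tgif corepressor genes, 13 were tested and 0 called, against 0.127% of all genes tested. Their median log2 difference was 0.01. Sin3a, a corepressor scaffold, stood at -0.41 ± 0.13 (limma adjusted p 0.27), Ncor1 at -0.35 ± 0.18 (0.506) and Smad3, a Tgif-bound Smad, at 0.36 ± 0.23 (0.589). Smad7, an inhibitor of the pathway, stood at 0.66 ± 0.37 (0.527), and its value of 13341 in tamoxifen replicate 2 was far above the 4846 and 4973 of the other tamoxifen and the 4632, 4000 and 4378 of the untreated libraries. Without tamoxifen replicate 2 the Smad7 difference was 0.18. Sin3a stood at -0.07 on recovered reads, or -0.32 against the median of all genes on that scale.

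Retinoic acid is a known inducer of Meis genes. Of 15 retinoid genes, 12 were tested and 0 called, against 0.127% of all genes tested. Their median log2 difference was 0.05. Crabp1, a retinoic acid carrier, had 299, 308 and 330 in tamoxifen and 505, 505 and 473 in untreated libraries, without overlap (log2 difference -0.66 ± 0.17, limma adjusted p 0.2). The receptor gene Rara stood at -0.36 ± 0.16 (0.444), Dhrs3 at 0.66 ± 0.37 (0.534) and the retinoic acid-degrading enzyme gene Cyp26a1 at 3.31 ± 2.16 (0.598). Cyp26a1 had 14, 9 and 17 reads in tamoxifen and 6, 18 and 0 in untreated libraries, and without untreated replicate 3 its difference was 0.34.

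All 9 genes known to act on TALE proteins were tested, with 0 called, against 0.127% of all genes tested, and a median of 0.09. Crbn, whose protein binds MEIS2 in a ubiquitin ligase complex in human cells, stood at -0.36 ± 0.15 (limma adjusted p 0.388). Crtc1, a CREB coactivator gene, stood at -0.83 ± 0.35 (limma adjusted p 0.398). On recovered reads Crtc1 stood at -0.20, or -0.45 against the median of all genes. Mybbp1a, whose protein binds Pknox1, stood at 0.46 ± 0.34 (0.639) and Cul4b at 0.27 ± 0.19 (0.627). Of 16 known targets of Meis or Pbx proteins, 7 were tested and 0 called, with a median of 0.30. Nanog, a pluripotency factor, stood at 0.57 ± 0.16 (limma adjusted p 0.245), Fgf10 at 1.25 ± 0.84 (0.606) and Hif1a at 0.30 ± 0.22 (0.64), with Hoxa3 as above. Fgf10 stood at 0.17 without untreated replicate 3.

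Markers of primitive endoderm, an extraembryonic lineage, were mostly higher in the same libraries as Meis1. All 10 were detected and 8 were tested. All 8 had deposited tamoxifen values above the untreated ones, which held for 9.49% of all genes tested. Of the 8, 0 were called, against 0.127% of all genes tested, and their median log2 difference was 1.30. Among the untested markers Foxa2 overlapped (612, 815 and 518 in tamoxifen, 396, 527 and 204 in untreated libraries) and Sox7 did not. The summed level of the 10 was 667 to 911 RPM in tamoxifen and 219 to 418 in untreated libraries. Col4a2 (1.27 ± 0.18, limma adjusted p 0.0703), Col4a1 (1.27 ± 0.19, 0.0726), Lamb1 (0.95 ± 0.15, 0.0785) and Pdgfra (1.33 ± 0.21, 0.0785) had the smallest p. Their part in the Meis1 and Meis2 values was not tested, and in bulk RNA more cells of a type and more RNA per cell cannot be told apart.

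Trophoblast markers summed to 132 to 152 RPM in tamoxifen and 53 to 104 in untreated libraries. Of these 8 markers 4 were tested and 0 called, against 0.127% of all genes tested. Hand1, a trophoblast transcription factor gene under 10 reads on average, had 6, 8 and 10 reads in tamoxifen and 0, 1 and 0 in untreated libraries, and was named after its values were seen. The keratin genes Krt8 and Krt18 and Ascl2, also named after their values were seen, had all deposited tamoxifen values above the untreated ones. The same held for 9.49% of all genes tested. Ascl2 was not among the tested genes, with 4, 3 and 9 reads in tamoxifen and 2, 6 and 2 in untreated libraries. Tfap2c (4572, 2314 and 3775 in tamoxifen, 2724, 1858 and 2313 in untreated libraries), Eomes and Cdx2 overlapped on deposited values. In RPM Krt8, Ascl2 and Eomes overlapped, while Krt18 and Tfap2c did not. Elf5 had 0 reads in tamoxifen libraries and 1, 0 and 0 in untreated libraries. Fibroblast markers summed to 5.2 to 19.7 in tamoxifen and 4.48 to 11.8 in untreated libraries, with 2 of 8 tested, 0 called, Lum at 0 in all libraries and Postn at 0 in untreated libraries. Neural markers summed to 24.2 to 35.6 in tamoxifen and 14.9 to 36.1 in untreated libraries, with 2 of 7 tested and 0 called. Mesoderm markers summed to 21.1 to 300 in tamoxifen and 5.23 to 10.9 in untreated libraries, with 1 of 8, the endothelial receptor gene Tek, tested and 0 called. Tek alone had 1143 reads in tamoxifen replicate 1, against 52 and 89 in the other tamoxifen libraries and 31, 27 and 9 in untreated libraries. The part of these markers in the Meis values was not tested.

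The genes whose profile over the 6 libraries was most like that of Meis1 were Zfp365, Perp, Creb3l2, Rin3 and Mical2. Likeness was the root mean square difference of centred log2(value + 1), among 11140 genes other than the members. These had at least 10 reads on average and a symbol that was not a predicted-gene, RIKEN or clone name. It was 0.329 for Zfp365, 0.362 for Perp, 0.379 for Creb3l2, 0.401 for Rin3 and 0.424 for Mical2, and 0.932 for Meis2, the nearest other member. Zfp365 had 1265, 1109 and 789 in tamoxifen libraries and 254, 215 and 155 in untreated libraries. Perp, a p53 target that encodes a desmosome protein, had 3075, 2296 and 2550 in tamoxifen and 555, 584 and 426 in untreated libraries. Mical2, an actin-oxidising enzyme gene, had 88, 69 and 108 in tamoxifen and 11, 11 and 10 in untreated libraries. The choice by likeness to Meis1 fixes the direction of these 5 genes.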

How the data were processed

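Total RNA depleted of ribosomal RNA was sequenced as directional libraries, 3 per group, per the labels' protocols. The table deposited by the authors gives a normalized signal per Ensembl gene; the submitters' processing notes name TopHat2, bedtools, DESeq2 and mm9, with no versions. The annotation, strand setting and counting rule are not given in the sources used here.

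All 100305 values above 0 equal 9.73 × k × (m + 0.1) / (k + 0.1) for whole k and m (relative tolerance 1e-13), and k was taken as the reads. Exactly 1 solution existed for 98.8%. For 1190 others the solution nearest the gene's m/k elsewhere was taken (1084), or else the m/k nearest 1.

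Log2(value + 1) was fitted with limma 3.58.1 (R 4.3.3, trend) for 11847 genes with at least 10 recovered reads on average, at a Benjamini-Hochberg adjusted p under 0.05. The solver was tested on values simulated from the formula itself, so that test cannot check the formula. The fit was tested on reads simulated with a fixed ratio of value to reads per gene, scaled per library. The deposited values do not follow such a fixed ratio, so the test of the fit does not cover that feature. Log2 differences are on the log2(value + 1) scale unless RPM or recovered reads are named, and the stated ratios are not on that scale. The added 1 shrinks differences between low values, but a library at 0 can inflate a difference. Cyp26a1, with such a library, stood at 3.31 with a ratio of means of 1.86. RPM are recovered reads per 1000000, with 0.5 added to each count for log2 differences. Python 3.11.15, numpy 2.4.6, pandas 2.3.3, scipy 1.17.1 and matplotlib 3.10.9 did the rest. Symbols and coordinates came from GENCODE vM21 (GRCm38) for 20273 genes and promoter windows from RefSeq (GRCm38.p6).

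Members and lists were chosen with earlier results of these data known. All members are named, then up to 4 tested genes of smallest p per gene list and for primitive endoderm markers, and the 5 genes most like Meis1. A few listed genes are not reported here. Alternatives were scaling, pseudocount, filter, reads, replicate block, length and leaving out each library.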

Additional observations from a re-analysis of the deposited data

How the results depend on the processing

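The count of 15 called genes (13 higher, 2 lower) was 14 with quantile normalization, 15 with trimmed-mean scaling and 13 on recovered reads, 5 of them shared with the 15. Deposited sums were already alike, at 43926373 to 44215042 per library, so quantile normalization and trimmed-mean scaling are weak checks. The count was 5 with a pseudocount of 10, 34 with a mean value of at least 10 as the filter and 52 with no filter, where more genes with few reads were tested. With 1 library left out the count was 0 to 1, on fewer samples. No member was called in any of these fits except Meis1 on recovered reads, in a fit whose genes had a median of 0.25. Since the members were chosen with this contrast known, that call is not read as a test. The direction of Meis1 and Meis2 was the same in all fits. Pknox1 had the opposite sign on recovered reads at 0.15, though it stood at -0.11 against the median of all genes there. With 1 library left out Pknox1 ranged from -0.33 to 0.04 and Pbx2 from -0.03 to 0.08. Ncor1 stood at 0.17 on recovered reads, or -0.08 against the median of all genes on that scale. With 1 library left out Hoxb9 ranged from -0.08 to 0.43 and Hoxb8 from -0.40 to 0.35. The cause was not tested.

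Replicate numbers are shared between the groups, but same-numbered libraries did not deviate together, with correlations across genes of -0.000841, -0.043 and 0.0252 for numbers 1 to 3, and the labels tie no number to a shared batch. With the replicate block 0 genes were called by limma, with 1364 at an unadjusted p under 0.05. Depth limits Meis3 and most Hox and Irx genes, which had under 10 reads on average.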
